A study of Mus musculus with 9 samples.

Results

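The transcripts described here encode 9 secreted growth factors that act on blood vessels and mesenchymal cells, *Vegfa*, *Vegfb*, *Vegfc*, *Fgf2*, *Fgf7*, *Hgf*, *Pdgfa*, *Angpt1* and *Hbegf*, together with *Hif1a*, the oxygen-regulated transcription factor subunit that switches on *Vegfa*. Every probe set to which the annotation of the array gives 1 of these 10 gene symbols was taken, whatever its signal. This gave 22 probe sets among the 45037 that were compared. MC3T3-E1 preosteoblasts, an established cell line derived from newborn mouse calvaria and labelled as strain C57BL/6, were cultured for 14 days with ascorbic acid and β-glycerophosphate and reseeded. They then received low-intensity pulsed ultrasound (LIPUS) through the base of the dish, at 1.5 MHz and 30 mW/cm2 for 20 min. RNA was taken from cells cultured for a further 24 h after LIPUS (3 arrays), from cells cultured for 6 h after LIPUS (3 arrays) and from mock-treated control cells (3 arrays). All groups shared the line, the medium and the earlier culture. The culture time of the control is not given in the sources used here, so that LIPUS and time in culture cannot be told apart in any comparison with it.

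Growth factors of the vascular endothelial growth factor (VEGF) family are ligands of receptor tyrosine kinases. VEGF-A drives the sprouting of blood vessels, VEGF-C acts mainly on lymphatic vessels and VEGF-B has a narrower part in vessel and fat metabolism. Fibroblast growth factor 7, also called keratinocyte growth factor, is made by mesenchymal cells and acts on epithelial cells, and hepatocyte growth factor works in the same direction through the receptor MET. In bone, osteoblasts are a source of VEGF-A, and vessels grow into a fracture callus along gradients of such factors.

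*Vegfc* and *Fgf7* were the only genes of the 10 with a probe set that passed the test after LIPUS, and the sequence upstream of each is shown to give the context of these results. The sequences are the 250 bases before the annotated RefSeq start on GRCm38.p6, written 5′ to 3′ on the strand of the gene. For *Vegfc* this is chr8:54077282-54077531 on the plus strand, and for *Fgf7* it is chr2:126034408-126034657 on the plus strand. Capitals mark matches to GGGCGG, the core bound by Sp1, in the *Vegfc* sequence, where they read CCGCCC because they lie on the opposite strand. In the *Fgf7* sequence they mark a match to GCGTG, which along with ACGTG is the core of a hypoxia response element.
Vegfc: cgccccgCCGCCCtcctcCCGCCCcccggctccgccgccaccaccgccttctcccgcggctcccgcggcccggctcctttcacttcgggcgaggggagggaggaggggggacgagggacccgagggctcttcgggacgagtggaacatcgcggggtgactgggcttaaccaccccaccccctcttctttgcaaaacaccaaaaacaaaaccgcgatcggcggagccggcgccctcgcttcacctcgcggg
Fgf7: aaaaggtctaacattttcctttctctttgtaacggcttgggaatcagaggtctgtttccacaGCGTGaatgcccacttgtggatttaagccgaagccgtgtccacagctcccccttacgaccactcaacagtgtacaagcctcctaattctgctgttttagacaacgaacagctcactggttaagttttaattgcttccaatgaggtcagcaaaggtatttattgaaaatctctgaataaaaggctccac
The *Vegfc* window had a GC content of 71.6% and held 2 matches to GGGCGG, at 243 to 238 and at 232 to 227 bases before the start. The *Fgf7* window had a GC content of 43.6% and held 1 match to GCGTG, at 188 to 184 bases before the start. Across the 32851 mouse windows of 250 bases the median GC content was 52.4%. Windows were found for 8 of the 10 genes, 11 in all, and *Angpt1* and *Hbegf* had no entry. Both strands were searched. Of the 11 windows 7 held ACGTG or GCGTG, against 38.6% of all windows, and 7 held GGGCGG, against 32.7% of all windows. These motifs are rich in G and C, and most of the 11 windows were above the median GC content, with *Vegfb* the highest at 76.4%. The shares were not matched for GC content, and *Vegfa*, *Hgf* and *Pdgfa* had 2 windows each. No window held TGACTCA or its reverse complement TGAGTCA, the site of AP-1 (4.46% of all windows), and none held CATTCC, the core bound by TEAD factors (12.6% of all windows). In the *Hif1a* window 2 of the 3 matches to ACGTG overlap on opposite strands. These are matches of letters in a fixed window, and binding was not measured.

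Signals are the log2 values that the authors deposited after RMA (robust multi-array average) normalization, and a difference of 1 on this scale is a doubling. The median log2 signal of an array was 4.93 to 5.15 at 24 h, 4.90 to 5.15 at 6 h and 4.89 to 5.15 in the control. Arrays of the same replicate number correlated at 0.9966 to 0.9994 across probe sets, and arrays of different numbers at 0.985 to 0.9939. Levels were compared within replicate numbers, with limma on all 9 arrays. A probe set was called at an adjusted p under 0.05 over all 45037 probe sets. Both LIPUS groups were set against the same 3 control arrays. Many deposited values were exactly repeated among arrays of a number. In 48.4% of probe sets the replicate 2 array at 24 h equalled its control, against 31.9% in replicate 3 and 1.26% in replicate 1. At 6 h the shares were 49.5% in replicate 2, 43.2% in replicate 3 and 1.72% in replicate 1. None of 8 osteoblast markers was called at 24 h (*Runx2*, *Bglap* and *Spp1* of the list were not analysed here), and *Col1a1*, the main bone collagen, was at the 99.4th percentile of mean signal. None of the 10 endothelial markers was called at 24 h and their median lay at the 23.4th percentile, with *Cdh5*, the cadherin that defines endothelium, at the 22.3rd percentile. The mean log2 signal over the endothelial list was 3.98 to 4.12 at 24 h, 3.78 to 4.14 at 6 h and 3.89 to 4.16 in the control. Over the 4 epithelial markers it was 6.53 to 6.92 at 24 h, 6.98 to 7.31 at 6 h and 6.98 to 7.35 in the control, where *Krt14* and *Cdh1* of the 4 fell at 24 h (log2 fold change −0.98 and −0.75). Of the pericyte markers 1 of 5 fell, *Cspg4* (−0.43), and of the chondrocyte markers 1 of 4, *Col2a1* (−0.82), while none of the macrophage or adipocyte markers was called. The part of these shifts and of the repeated values in the results below was not tested.

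At 24 h 4 of the 22 probe sets were higher than in the control, or 18.2%, and none was lower. Over all probe sets 2.73% were called at this time, with 1.8% higher and 0.933% lower. The 4 were 2 of the 3 probe sets of *Vegfc* and both probe sets of *Fgf7*. When only probe sets above the median mean signal were tested, 3 of 15 were called (2 higher and 1 lower), against 1789 of 22518. The median log2 fold change of the 22 was 0.02, against 0.00 for all probe sets. At 24 h 8 of the 22 were higher than the control of the same number in all 3 pairs (36.4%, against 10.3% of all probe sets). In all 3 pairs 3 were lower (13.6%, against 6.84%). A pair of equal values counts as neither, which lowers these shares. In replicate 2 such pairs made up 31.8% of the 22, against 48.4% of all probe sets, and in replicate 3 27.3%, against 31.9%. The study's own measure, a ratio of at least 1.5 in each of the 3 pairs, was applied here to the deposited RMA values. It was met by 0 of the 22 at 24 h and by 59 of all probe sets (0.131%). Ratios printed in the paper differ from those of these values for some probe sets, so its own counts need not match. A ratio of 1.3 in each pair was met by 1 of the 22, a *Vegfc* probe set, and by 0.444% of all probe sets. The probe sets were not independent readings, since those of a gene report the same transcript or its variants.

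**Figure D1:**
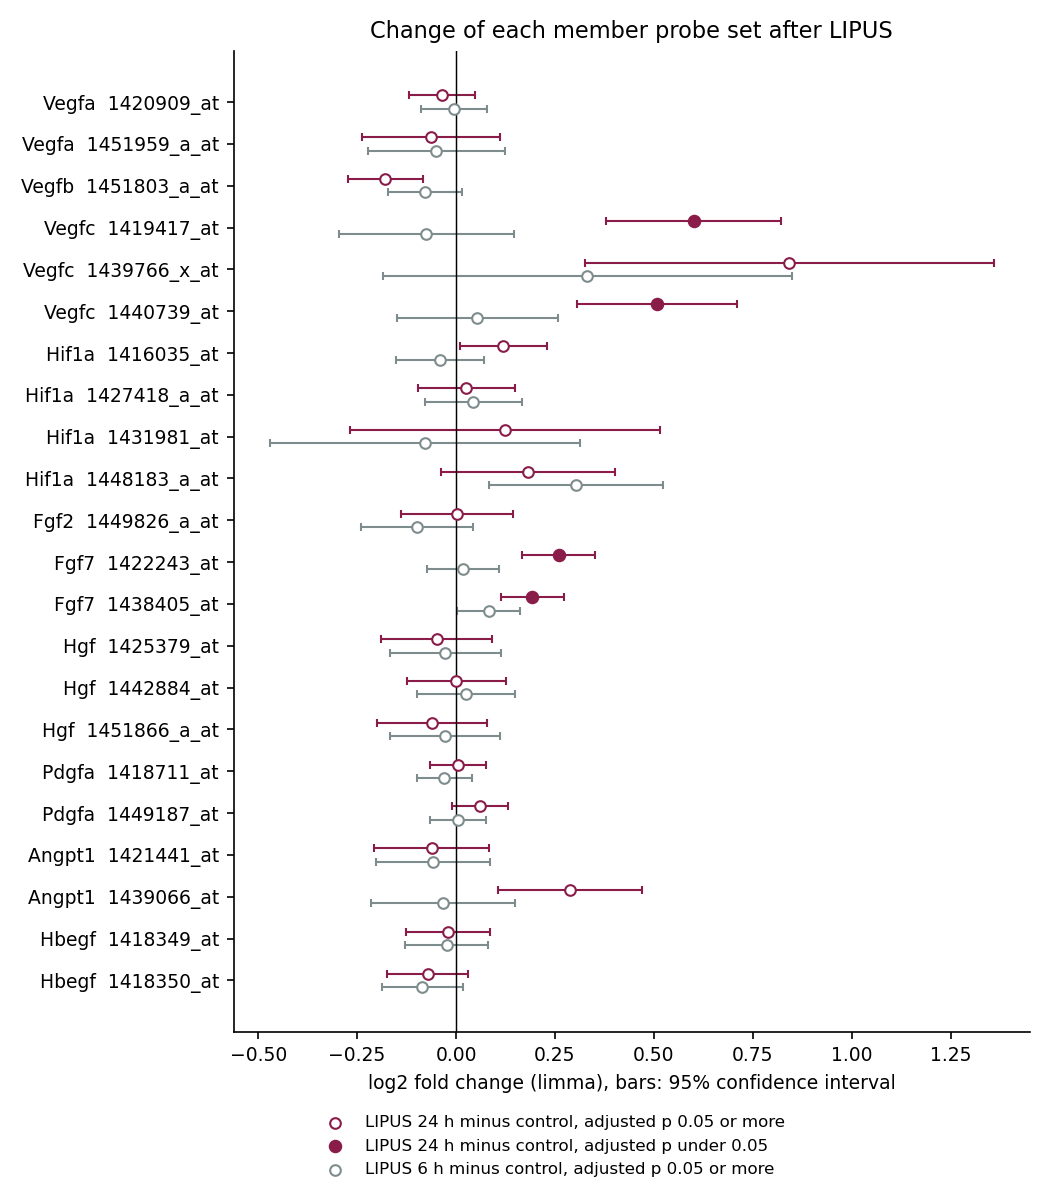
Log2 fold change (x axis) of the 22 probe sets (y axis) from limma, LIPUS 24 h minus control in dark red and LIPUS 6 h minus control in grey, with 95% confidence intervals over 3 arrays a group. Filled points, adjusted p under 0.05, are 2 *Vegfc* and 2 *Fgf7* probe sets at 24 h, between 0.19 and 0.60, and no point is filled at 6 h.

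*Vegfc* was higher 24 h after LIPUS in 2 of its 3 probe sets, by 1.42-fold and 1.52-fold, both dim probe sets at the 41.0th and 35.5th percentiles of mean signal, and did not differ from the control by the test at 6 h. Probe set 1419417_at gave log2 signals of 4.39, 4.47 and 4.66 at 24 h, of 3.49, 4.04 and 3.97 at 6 h, and of 3.71, 4.04 and 3.97 in the control. Each of the 3 arrays at 24 h lay above all 6 other arrays, and the 6 h and control arrays overlapped. It was the only 1 of the 22 probe sets whose groups did not overlap at 24 h (4.55%, against 1.47% of all probe sets). *Vegfc* 1419417_at rose by a log2 fold change of 0.60 against the control (standard error 0.09, limma adjusted p = 0.0219) and a 95% interval of 0.38 to 0.82 on the log2 scale, or 1.52-fold. The ratios in the 3 pairs were 1.60, 1.34 and 1.62. Against 6 h the log2 fold change was 0.68 (limma adjusted p = 0.0174), and at 6 h against the control it was −0.08 with an interval of −0.30 to 0.15. The 6 h and control values of replicates 2 and 3 were identical in this probe set.

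Probe set 1440739_at of *Vegfc* showed the same direction. Its log2 signals were 4.65, 5.19 and 4.32 at 24 h, 4.06, 4.66 and 4.08 at 6 h, and 3.96, 4.66 and 4.02 in the control. Replicate 2 lay highest in every group, so that the groups overlapped although the 24 h array was the highest of each replicate number. *Vegfc* 1440739_at rose by 0.51 at 24 h against the control (standard error 0.09, limma adjusted p = 0.0301), or 1.42-fold. Against 6 h its difference of 0.45 did not pass (limma adjusted p = 0.0539).

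The remaining *Vegfc* probe set, 1439766_x_at, carries the suffix of sets whose probes can also bind other transcripts. Its log2 signals were 5.43, 6.20 and 6.09 at 24 h, 4.91, 5.87 and 5.41 at 6 h, and 4.82, 5.87 and 4.50 in the control. The paired differences at 24 h were 0.61, 0.33 and 1.59, so that replicate 3 alone accounted for most of the mean and its low control array set the size. The log2 fold change of *Vegfc* 1439766_x_at was 0.84, the highest of the 22, but its interval ran from 0.33 to 1.36 and it was not called (standard error 0.22, limma adjusted p = 0.127). Without replicate 3 the value was 0.47 and passed (limma adjusted p = 0.0435). At 6 h the log2 fold change was 0.33, with an interval of −0.18 to 0.85.

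**Figure D2:**
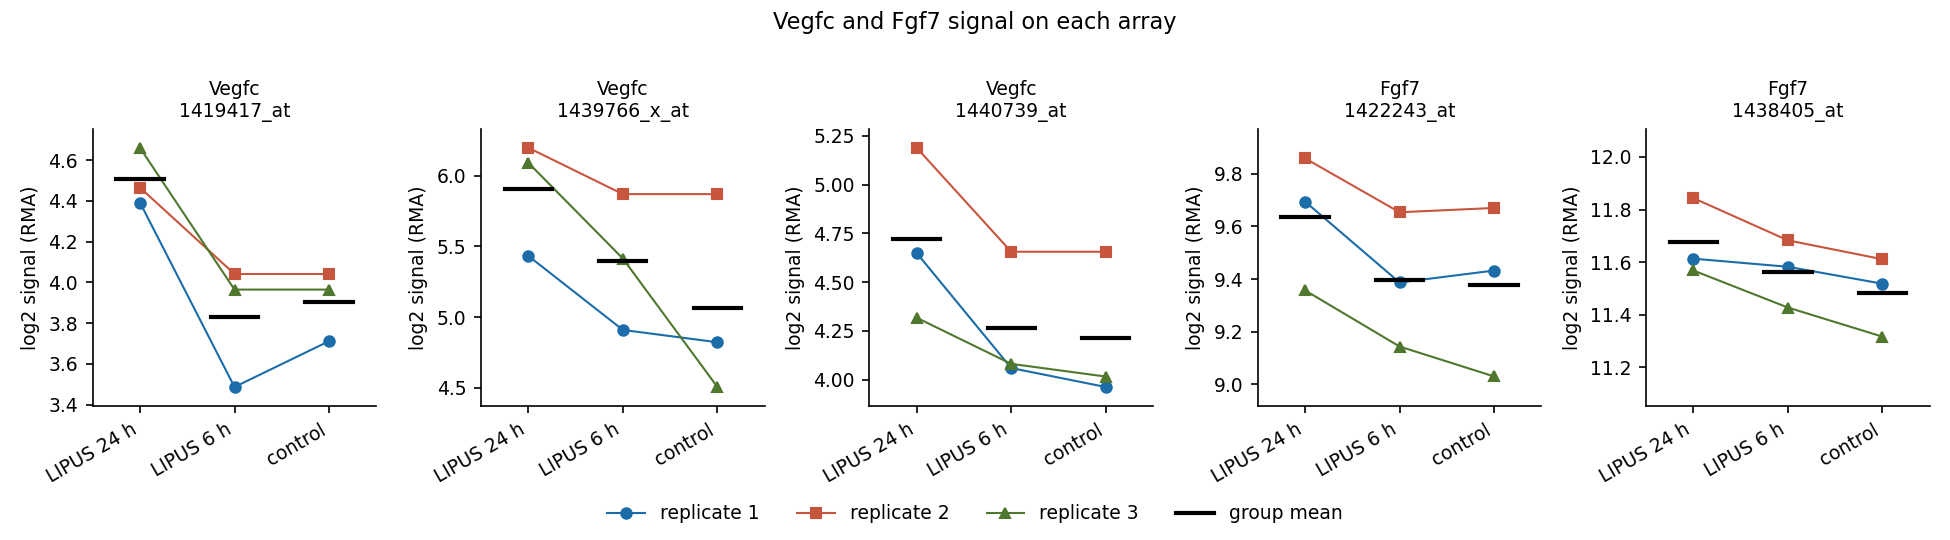
Log2 RMA signal (y axes, a scale of its own for each probe set) on the 3 arrays each of LIPUS 24 h, LIPUS 6 h and control cells (x axis) for the *Vegfc* and *Fgf7* probe sets. Points joined by a line share a replicate number and black bars are group means. In each panel the 24 h array is the highest of every replicate number, and for *Vegfc* 1419417_at the 24 h arrays at 4.39 to 4.66 clear all others.

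*Vegfa*, the main angiogenic ligand, showed no such difference. Probe set 1420909_at gave 7.14, 7.65 and 6.89 at 24 h, 7.16, 7.70 and 6.91 at 6 h, and 7.20, 7.70 and 6.89 in the control. The groups overlapped almost fully and the replicate number set the order of the arrays. Its log2 fold change at 24 h was −0.04 with a 95% interval of −0.12 to 0.05 (limma adjusted p = 0.71), which leaves room for a ratio of 0.920 to 1.03. The second *Vegfa* probe set, 1451959_a_at, gave −0.06 at 24 h on the log2 scale (interval −0.24 to 0.11) and of −0.05 at 6 h. Its 3 paired differences at 24 h did not share a sign, with 1 array above and 2 below their controls.

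*Vegfb* was measured by 1 probe set, 1451803_a_at. Its log2 signals were 8.27, 8.51 and 7.83 at 24 h, 8.37, 8.58 and 7.96 at 6 h, and 8.49, 8.58 and 8.07 in the control. Every 24 h array was below the other arrays of its number, while the groups overlapped. The log2 fold change at 24 h was −0.18 (interval −0.27 to −0.08) and did not pass over all probe sets (standard error 0.04, limma adjusted p = 0.0816). At 6 h it was −0.08 with an interval of −0.17 to 0.02. It was called lower when only probe sets above the median mean signal were tested (limma adjusted p = 0.0418).

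Transcripts of *Hif1a*, whose protein is controlled mostly by its stability, were read by 4 probe sets. The 2 brightest of them, 1427418_a_at and 1416035_at, had log2 fold changes of 0.03 (interval −0.10 to 0.15) and 0.12 (interval 0.01 to 0.23) at 24 h. Probe set 1416035_at gave 9.51, 9.95 and 9.12 at 24 h, 9.33, 9.68 and 9.09 at 6 h, and 9.37, 9.82 and 9.02 in the control. Each 24 h array was the highest of its number, by less than the distance between numbers, and the value was not called (limma adjusted p = 0.351). Probe set 1448183_a_at had its highest mean at 6 h. It gave 5.17, 5.62 and 4.50 at 24 h, 5.41, 5.87 and 4.37 at 6 h, and 5.15, 5.36 and 4.23 in the control. The log2 fold change of 0.30 at 6 h against the control (unadjusted p = 0.0137 from limma) had an adjusted p of 0.959. At 24 h against the control it was 0.18, and 24 h minus 6 h was −0.12, which was not called (limma adjusted p = 0.732). The dimmest *Hif1a* probe set, 1431981_at, lay at the 23.1st percentile of mean signal and had an interval of −0.27 to 0.52 at 24 h.

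Of the fibroblast growth factors, *Fgf7* rose at 24 h in both its probe sets and *Fgf2* was not called. *Fgf7* was bright, with probe sets 1438405_at and 1422243_at at the 97.9th and 89.3rd percentiles of mean signal. Probe set 1422243_at gave log2 signals of 9.69, 9.86 and 9.36 at 24 h, of 9.39, 9.65 and 9.14 at 6 h, and of 9.43, 9.67 and 9.03 in the control. The 24 h array was the highest of each number, and the groups overlapped because replicate 3 was low throughout. *Fgf7* 1422243_at rose by 0.26 at 24 h against the control (standard error 0.04, limma adjusted p = 0.0190), or 1.20-fold, with a 95% interval of 0.17 to 0.35 on the log2 scale. Against 6 h it rose by 0.24 (limma adjusted p = 0.0291), and at 6 h its log2 fold change against the control was 0.02 (interval −0.07 to 0.11).

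*Fgf7* 1438405_at gave 11.61, 11.84 and 11.57 at 24 h, 11.58, 11.68 and 11.43 at 6 h, and 11.52, 11.61 and 11.32 in the control. In each replicate number the 24 h array was the highest, the 6 h array came next and the control was the lowest. The rise at 24 h against the control was 0.19 (standard error 0.03, limma adjusted p = 0.0321), or 1.14-fold. The difference of 0.11 between 24 h and 6 h was not called (limma adjusted p = 0.238), nor was that of 0.08 between 6 h and the control (adjusted p = 0.959).

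*Fgf2*, the basic fibroblast growth factor, was read by a single dim probe set, 1449826_a_at, at the 7.17th percentile of mean signal. Its 24 h values of replicates 2 and 3 were identical to those of the control, and the log2 fold change of 0.00 (interval −0.14 to 0.14) came from replicate 1 alone.

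*Angpt1*, the ligand of the endothelial receptor TIE2 that steadies vessels, had 2 probe sets that parted. Probe set 1439066_at gave 5.43, 6.05 and 5.57 at 24 h, 5.22, 5.59 and 5.28 at 6 h, and 5.33, 5.70 and 5.16 in the control. All 3 arrays at 24 h were above both other arrays of their number, and the groups overlapped. The log2 fold change of 0.29 against the control (standard error 0.08, interval 0.11 to 0.47) was not called (limma adjusted p = 0.141), and that of 0.32 against 6 h was not called either (limma adjusted p = 0.122). The dimmer probe set 1421441_at lay −0.06 from the control on the log2 scale at 24 h (interval −0.21 to 0.08), and its values in replicates 2 and 3 were the same in all groups.

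*Hgf*, *Pdgfa* and *Hbegf* were not called at either time. *Hgf*, the ligand of MET, gave 5.31, 5.58 and 5.36 at 24 h, 5.43, 5.55 and 5.34 at 6 h, and 5.35, 5.55 and 5.34 in the control with probe set 1442884_at. Its groups overlapped. The 3 probe sets of *Hgf* had log2 fold changes of −0.06 to 0.00 at 24 h and of −0.03 to 0.03 at 6 h, and the widest interval at 24 h, of 1425379_at, ran from −0.19 to 0.09. *Pdgfa*, a mitogen for mesenchymal cells, gave 9.59, 9.71 and 9.24 at 24 h, 9.52, 9.66 and 9.19 at 6 h, and 9.49, 9.71 and 9.16 in the control with probe set 1449187_at. The 3 groups overlapped and their means lay within 0.06 of each other. Its log2 fold changes at 24 h were 0.06 (interval −0.01 to 0.13) and, with probe set 1418711_at, 0.01 (interval −0.07 to 0.08), the narrowest intervals of the 22. *Hbegf*, the heparin-binding ligand of the EGF receptor, had log2 fold changes of −0.02 with 1418349_at and −0.07 with 1418350_at at 24 h. Probe set 1418350_at was lower than the control in all 3 pairs at both times, by −0.07 at 24 h (interval −0.17 to 0.03) and −0.09 at 6 h (interval −0.19 to 0.02).

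**Figure D3:**
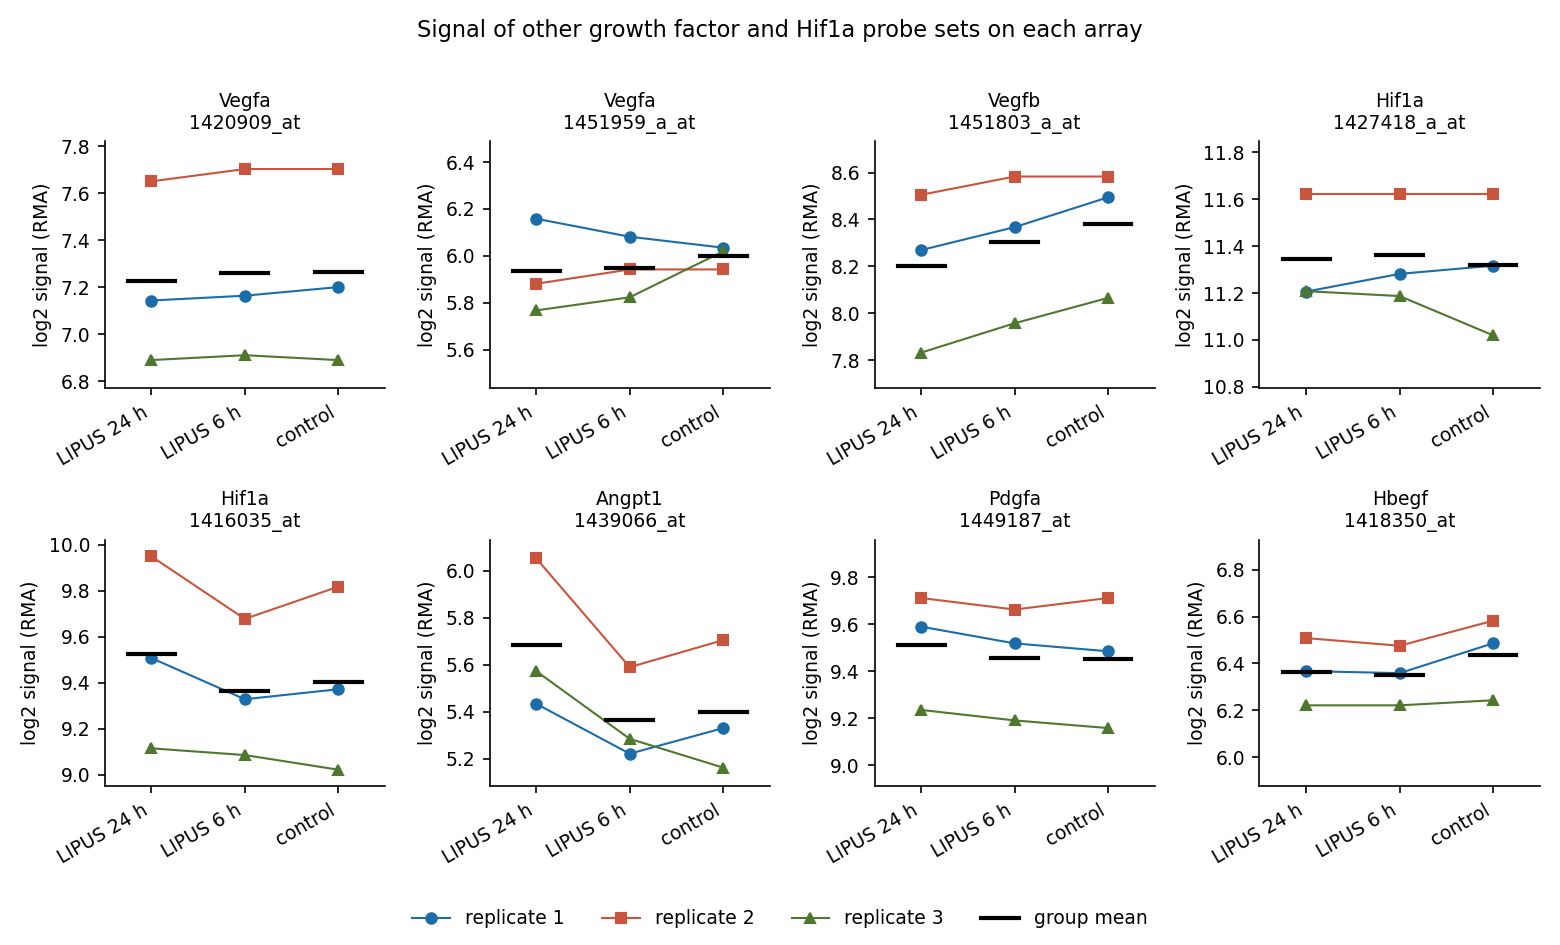
Log2 RMA signal (y axes, a scale of its own for each probe set) on the 3 arrays each of LIPUS 24 h, LIPUS 6 h and control cells (x axis) for probe sets of *Vegfa*, *Vegfb*, *Hif1a*, *Angpt1*, *Pdgfa* and *Hbegf*. Points joined by a line share a replicate number and black bars are group means. The distance between replicate numbers exceeds that between groups in most panels, and none of these probe sets was called.

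**Figure D4:**
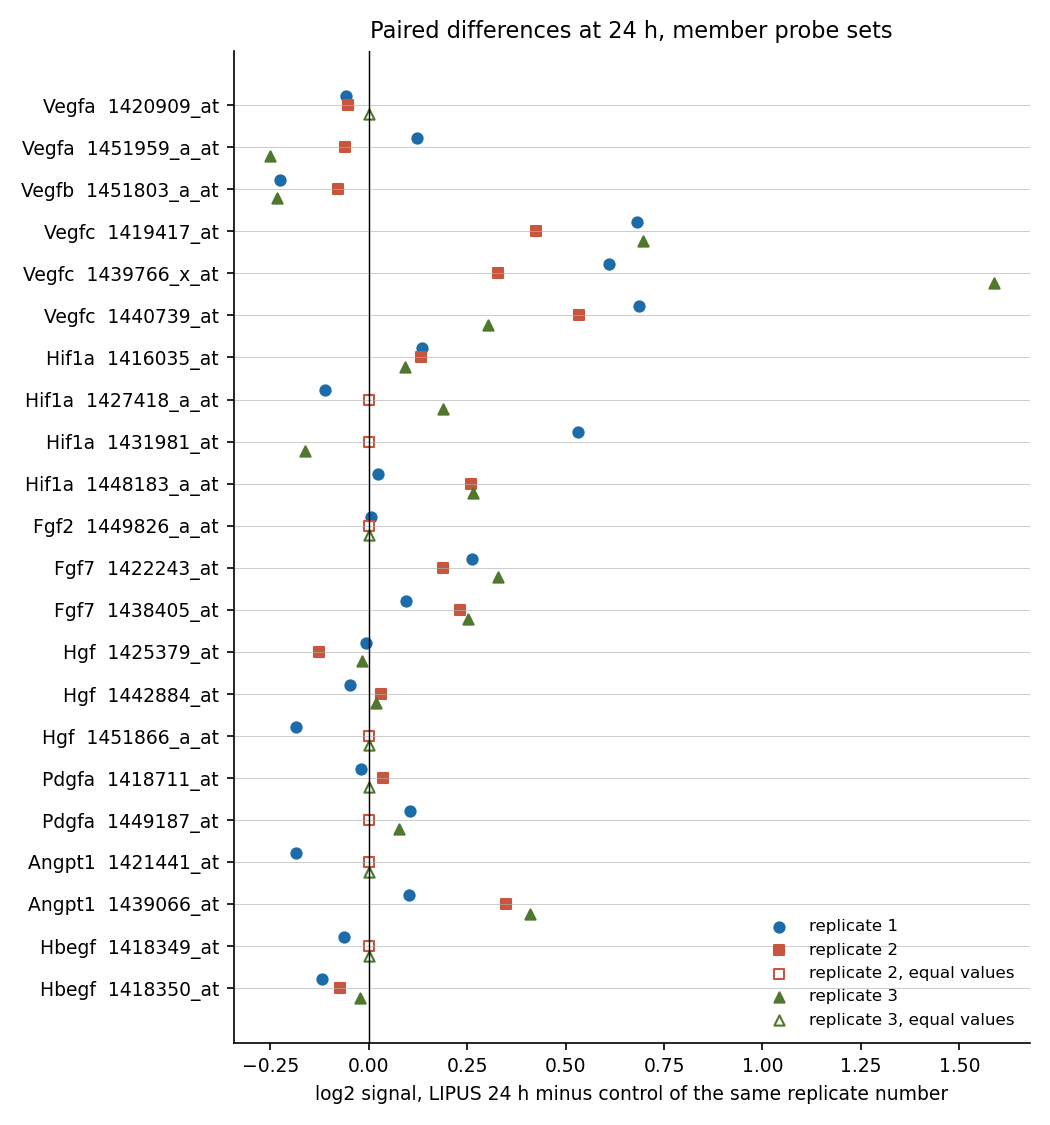
Log2 signal at LIPUS 24 h minus that of the control of the same replicate number (x axis) for the 22 probe sets (y axis). Open symbols mark pairs with exactly equal values, of which replicate 2 holds 7 and replicate 3 holds 6. The 3 *Vegfc* probe sets, both of *Fgf7*, *Angpt1* 1439066_at and 2 *Hif1a* probe sets have all 3 differences above 0, and *Vegfb* is among the 3 with all differences below 0.

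At 6 h after LIPUS no growth factor or *Hif1a* probe set was called against the control. By limma 0 of the 22 passed, as did 0% of all probe sets, and the smallest adjusted p was 0.959. At an unadjusted p under 0.05 limma gave 2 of the 22, *Hif1a* 1448183_a_at and *Fgf7* 1438405_at (9.09%, against 3.5% of all probe sets), and the methods' t-test gave 0. At 6 h 2 of the 22 were higher than the control of the same number in all 3 pairs (9.09%, against 6.48% of all probe sets). In all 3 pairs 1 was lower (4.55%, against 4.24%). Equal pairs again count as neither. They made up 63.6% of the 22 in replicate 2, against 49.5% of all probe sets, and 36.4% in replicate 3, against 43.2%. The log2 fold changes at 6 h ran from −0.10 for *Fgf2* to 0.33 for *Vegfc* 1439766_x_at. Between the LIPUS groups 2 of the 22 (9.09%) were higher at 24 h than at 6 h and none was lower, against 2.02% of all probe sets, with 1.14% higher and 0.879% lower. These were *Vegfc* 1419417_at and *Fgf7* 1422243_at, of which the first had LIPUS groups that did not overlap (1 of the 22, or 4.55%, against 1.22% of all probe sets).

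The calls at 24 h depended on which arrays were kept. Each rise was tested again with 1 array or 1 replicate number left out, in 12 ways. Without replicate 1 or without replicate 2, 0 of the 22 were called. In the fit without replicate 3, 3 were called, among them *Vegfc* 1439766_x_at, which gained its call. Over all probe sets these fits called 0 without replicate 1, 49 without replicate 2 and 1439 without replicate 3. A call lost without replicate 1 was thus lost by every probe set. *Vegfc* 1419417_at stayed under the threshold in 2 of the 12, without 24 h replicate 2 and without 6 h replicate 2 (adjusted p = 0.0373 in both), and had an adjusted p of 0.0503 to 0.414 in the others. *Vegfc* 1440739_at stayed called in 2 of the 12, without replicate 3 (adjusted p = 0.0177) and without 24 h replicate 3 (0.0105), with 0.0538 to 0.524 in the others. *Fgf7* 1422243_at stayed called in 4 of the 12, without replicate 3 (0.0293) or without its 24 h (0.0434), 6 h (0.0341) or control array (0.0391), with 0.0519 to 0.437 in the others. *Fgf7* 1438405_at stayed called in 1 of the 12, without 24 h replicate 1 (0.0237), with 0.0676 to 0.369 in the others. Their log2 fold changes were above 0 in every such fit. Since all 3 paired differences of each were above 0, leaving out a replicate number could not change the sign. When the replicate number was left out of the model the adjusted p was 1 for all 4. Without the intensity trend *Vegfc* 1419417_at stayed called (adjusted p = 0.0422), and *Vegfc* 1440739_at (0.0504), *Fgf7* 1422243_at (0.0716) and *Fgf7* 1438405_at (0.142) did not. *Fgf7* 1438405_at also lost its call when arrays were centred on their medians (adjusted p = 0.0873).

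Receptors, partners and related genes were read from lists, with each gene at its brightest probe set. Over all probe sets 2.73% were called at 24 h. When only probe sets above the median mean signal were tested, 1789 of 22518 were called. The counts in the lists were not tested against these shares. Of the 7 other members of the VEGF family and its receptors 1 fell at 24 h and none rose (median log2 fold change −0.14). This was *Flt1*, the VEGFR1 receptor that also binds VEGF-A as a decoy. It gave 7.68, 8.07 and 7.84 at 24 h, 8.16, 8.47 and 8.07 at 6 h, and 8.01, 8.31 and 8.04 in the control. *Flt1* was lowest at 24 h in each number, by a log2 fold change of −0.26 (standard error 0.05, limma adjusted p = 0.0482), but its other 3 probe sets were between −0.05 and 0.00 and were not called. The call of *Flt1* was lost when arrays were centred on their medians (adjusted p = 0.0886) and without the intensity trend (adjusted p = 0.110). *Flt4*, the receptor of VEGF-C, had a value of 0.11 (limma adjusted p = 0.653). *Nrp1*, a co-receptor of VEGF, had −0.14 at its brightest probe set (limma adjusted p = 0.536), and −0.23 at 1418084_at, which was called (limma adjusted p = 0.0230).

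Among the FGF ligands and receptors 3 of 12 measured genes rose at 24 h and none fell (median 0.03). *Fgf18*, a ligand made in the bone-forming lineage, gave 6.37, 6.80 and 6.15 at 24 h, 5.82, 6.06 and 5.48 at 6 h, and 5.80, 5.73 and 5.74 in the control. All 24 h arrays lay above all others, and the log2 fold change against the control was 0.69 (standard error 0.12, limma adjusted p = 0.0372). *Fgfr1*, a receptor on mesenchymal cells, gave 10.01, 10.11 and 10.01 at 24 h, 9.84, 9.94 and 9.77 at 6 h, and 9.76, 9.81 and 9.60 in the control. Its groups at 24 h and in the control did not overlap, and it rose by 0.32 (standard error 0.03, limma adjusted p = 0.00522). *Fgfr2*, which in its epithelial form is the receptor of FGF7, rose by 0.28 (standard error 0.03, limma adjusted p = 0.00725). Of the other probe sets of these receptors, *Fgfr1* 1425911_a_at was also called (0.48, limma adjusted p = 0.0170), and the remaining 3 were not. The brightest probe sets of both receptors carry a suffix for probes shared between transcripts.

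Among targets of hypoxia-inducible factor 3 of 23 measured genes rose at 24 h and none fell (median 0.07). *Car9*, the carbonic anhydrase that is a strict hypoxia target, gave 5.32, 5.35 and 5.42 at 24 h, 4.27, 4.36 and 4.55 at 6 h, and 4.13, 4.36 and 4.72 in the control. The 24 h arrays lay well apart from the others, and the log2 fold change was 0.96 (standard error 0.09, limma adjusted p = 0.00386). This was a dim probe set at the 46.2nd percentile of mean signal. Its control and 6 h values lay below the medians of their arrays and were identical in replicate 2. *Pfkl*, a glycolytic enzyme, rose by 0.30 (limma adjusted p = 0.0217) and *P4ha1*, a collagen prolyl hydroxylase, by 0.18 (limma adjusted p = 0.0250), each with other probe sets that were not called. *Pdk1*, a kinase that holds back pyruvate oxidation, had 0.51 at its brightest probe set (limma adjusted p = 0.196) while 2 other probe sets were called, at 0.34 (adjusted p = 0.0190) and 0.49 (adjusted p = 0.00602). The glycolytic enzymes *Pgk1* and *Ldha*, also on the list, were not called and had log2 fold changes of 0.02 and 0.00. None of the 8 genes of oxygen sensing was called, among them *Egln1* at 0.14 (limma adjusted p = 0.180) and *Vhl* at 0.13 (0.111).

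In the PDGF list 1 of 6 genes rose at 24 h and none fell. *Pdgfc*, a ligand of the PDGF α receptor, gave 11.19, 11.45 and 10.73 at 24 h, 11.04, 11.27 and 10.58 at 6 h, and 11.00, 11.29 and 10.60 in the control. The 24 h array was the highest of each number, and the log2 fold change was 0.16 (standard error 0.02, limma adjusted p = 0.0182), with 0.14 at a second probe set (adjusted p = 0.0400). The call of *Pdgfc* was lost with the replicate number as a random block, that is with an estimated correlation (adjusted p = 0.158), and without the intensity trend of the fit (adjusted p = 0.141). No gene was called of the 9 of HGF activation, where *Mst1* had −0.30 (limma adjusted p = 0.438) and *Spint1* −0.29 (0.478). The same held for the 5 measured genes of the angiopoietin list, with *Angpt4* at 0.17 (limma adjusted p = 0.451) and *Angptl4* at −0.12 (0.724). None of the 14 measured genes of the EGF family, its receptors and the proteases and partners that bear on release of its ligands was called either, with *Ereg* at −0.25 (limma adjusted p = 0.506) and *Tgfa* at −0.23 (0.675). A dimmer probe set of *Egfr*, the receptor of HB-EGF, was called (1424932_at, 0.22, limma adjusted p = 0.0165), against 0.14 at its brightest (adjusted p = 0.241).

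Of 6 measured inhibitors of angiogenesis 2 rose at 24 h and none fell (median 0.09). *Thbs1* is a matrix protein that blocks vessel growth. The study also picked out this gene on these arrays, at another probe set than the one read here. *Thbs1* 1460302_at gave 8.89, 9.25 and 8.98 at 24 h, 8.20, 8.53 and 8.10 at 6 h, and 8.04, 8.41 and 7.95 in the control. *Adamts1*, a matrix protease that binds VEGF-A, gave 8.83, 9.28 and 8.63 at 24 h, 8.31, 8.68 and 8.07 at 6 h, and 8.19, 8.62 and 8.06 in the control. For *Thbs1* the 24 h arrays lay above all others, and for *Adamts1* they lay above all control arrays and overlapped those at 6 h. The log2 fold change was 0.90 for *Thbs1* (standard error 0.05, limma adjusted p = 0.000518) and 0.62 for *Adamts1* (standard error 0.03, limma adjusted p = 0.000606). *Thbs2*, another thrombospondin, had 0.07 at its brightest probe set (limma adjusted p = 0.592), while 1450663_at was called (0.22, adjusted p = 0.00989). At 6 h no gene of any of these lists was called. Of the 10 genes of the lists that were called at 24 h, *Thbs1* stayed called in 11 of the 12 fits with an array or a replicate number left out (adjusted p = 0.220 without replicate 1). *Car9*, *Fgfr1* and *Adamts1* stayed called in 10 of the 12, all but those without replicate 1 or without replicate 2. Over all probe sets 0 were called without replicate 1 and 49 without replicate 2. The loss without replicate 1 was thus shared by every probe set and tells nothing about single genes. The others were called in 3 to 7 of the 12, with *Fgfr2* at 7, *Pfkl* and *Pdgfc* at 4, and *Flt1*, *Fgf18* and *P4ha1* at 3. Without the intensity trend *Fgf18* (adjusted p = 0.0782), *Pfkl* (0.0579) and *P4ha1* (0.108) were not called, and *P4ha1* was not called after quantile normalization (0.0564).

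**Figure D5:**
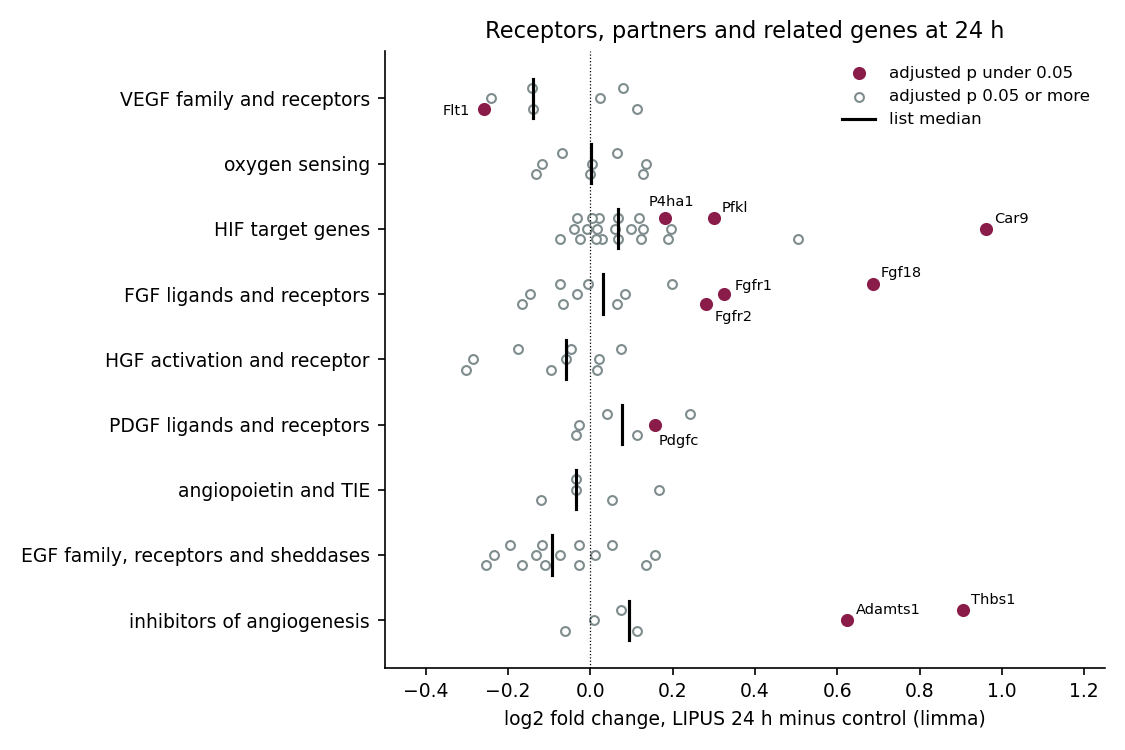
Log2 fold change of LIPUS 24 h minus control from limma (x axis) for the genes of each list (y axis), each at its brightest probe set. Filled points have an adjusted p under 0.05 and are named, open points do not, and black bars are list medians. Called genes run from −0.26 for *Flt1* to 0.96 for *Car9*, and 4 of the 9 lists hold no filled point.

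Over the 9 arrays, after the mean of each replicate number was subtracted, the probe sets above the median signal that tracked *Fgf7* 1438405_at most closely were those of *Fundc2* (Pearson r = 0.9947), *Dnajc1* (0.9922) and *Bach1* (0.9887). For *Vegfc* 1419417_at, which was added after its values were seen, they were *Sfswap* (0.9983), *Bag2* (0.9941) and *Anxa6* (0.994). A correlation does not show the size of a change. At 24 h against the control the log2 fold changes of these 3 were 0.06, 0.16 and 0.23, against 0.60 for *Vegfc*. Those of the 3 nearest to *Fgf7* were 0.36, 0.23 and 0.16, against 0.19. The correlations are descriptions over 9 arrays that share replicate numbers, and the genes were picked from all probe sets for this likeness.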

How the data were processed

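Transcripts were measured on 9 Affymetrix mouse genome arrays, 3 each of LIPUS 24 h, LIPUS 6 h and mock control cells. The authors labelled cRNA from 500 ng of total RNA and deposited log2 signals made with RMA, per the labels, whose version and settings are not given in the sources used here. These values were not transformed further, 64 control probe sets were left out, and 0 columns of per-sample values were unused. Probe sets were named from the platform annotation, with old symbols replaced by way of gene identifiers, which gave 1 symbol for 34945 of 45037 probe sets, several for 932 and none for 9160. Upstream sequences came from RefSeq on GRCm38.p6, and protein patterns were not analysed here.

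Differences were tested with limma 3.58.1 in R 4.3.3 (lmFit, then eBayes with an intensity trend), with the replicate number as a fixed block. This left 4 residual and 3.00 prior degrees of freedom. P-values were two-sided and adjusted by the Benjamini-Hochberg method over all 45037 probe sets, at a threshold of 0.05. The number was taken as a pairing by the rule that set which arrays and probe sets were read. Deviations from the group means correlated at 0.70 to 0.93 between arrays of a number. Exactly repeated values can raise such a correlation, and their part in it was not tested. In replicate 1, where few values were repeated, it was 0.70 to 0.85. The study describes 3 experiments, but the labels do not tie an array number to an experiment, so p-values measure the spread between these arrays, which may be technical, and 3 arrays a group limit the precision. The fit was also run on data simulated from the same model that it fits, with the outcome not given here. The simulated data had independent noise and no repeated values, so they cannot show how the repeats in the deposited values affect the fit. Genes, lists and motifs were chosen with earlier results of these data known. Named were all 10 genes, up to 4 called genes of each list by size at 24 h, or up to 2 by value where none was called, and the genes nearest in pattern. *Flt4*, *Nrp1*, *Pdk1*, *Pgk1*, *Ldha*, *Egfr*, *Thbs2*, the marker genes and the second probe sets were added after their values were seen. Alternatives were the block, the trend, the arrays, the normalization, a signal filter, array weights, the methods' t-test, the fold and leaving arrays out. The fit to probe sets without repeated values, and the alternatives for the lists, were chosen after seeing the data.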

Additional observations from a re-analysis of the deposited data

Results flagged for a closer look

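Several genes differed between 24 h and 6 h, by the limma test of 24 h against 6 h, which equals the test of the difference between their changes from the same control. Log2 differences (24 h minus 6 h) were 0.68 for *Vegfc* 1419417_at (adjusted p = 0.0174) and 0.24 for *Fgf7* 1422243_at (adjusted p = 0.0291). In the FGF list they were 0.19 for *Fgfr1* (adjusted p = 0.0399) and 0.22 for *Fgfr2* (adjusted p = 0.0213), and in the PDGF list 0.16 for *Pdgfc* (adjusted p = 0.0213). In the list of hypoxia targets they were 0.97 for *Car9* (adjusted p = 0.00402) and 0.17 for *P4ha1* (adjusted p = 0.0374). *Thbs1* had 0.76 (adjusted p = 0.00109) and *Adamts1* 0.56 (adjusted p = 0.00100). *Flt1* was lower at 24 h, by −0.37 (adjusted p = 0.0156). With an array or a replicate number left out, in 12 ways, *Thbs1* and *Adamts1* stayed called in 10, *Car9* in 8, *Vegfc* and *Flt1* in 5, *Pdgfc* in 4, *Fgfr2* in 3, *Fgf7* in 2, and *Fgfr1* and *P4ha1* in 1. In this comparison 0 of all probe sets were called without replicate 1 and 44 without replicate 2.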

How the results depend on the processing

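Without the replicate block limma called 0 of the 22 growth factor and *Hif1a* probe sets at 24 h against the control, where it called 4 with the block, and 1 of all probe sets against 1229. Against 6 h it called 0 of the 22 and 0 of all, against 2 and 909. With only the 6 arrays of a comparison it called 0 of the 22 and 5 of all at 24 h against the control, and 0 and 8 against 6 h. Without the intensity trend it called 1 and 522 at 24 h against the control, and 1 and 354 against 6 h. With array weights, whose estimation did not converge, it called 10 (8 higher, 2 lower) and 9276, and 6 and 5482. The methods' t-test gave 1 of the 22 and 351 of all at an unadjusted p under 0.05 at 24 h, 53 of all at 6 h, and 1 and 299 for 24 h against 6 h. After Benjamini-Hochberg it gave 0 in each. When only probe sets above the median signal were tested, 15 of the 22 remained. At 24 h against the control 3 of the 15 were called (2 higher, 1 lower) and 1789 of 22518 in all. Against 6 h it was 1 of the 15 and 1282 of 22518. A random block gave 1 of all at 6 h. Another fit took only probe sets free of repeated values, a set chosen after seeing the data. It leaves out those with a difference of exactly 0. In it 1969 of 5755 were called at 24 h and 1527 against 6 h. Of the 22 probe sets 5 were in it, and 3 of the 5 were called in each of these comparisons. At 24 h *Angpt1* 1439066_at gained a call there (limma adjusted p = 0.0435). A fold of 1.3 in each pair was met by 1 of the 22 at 24 h. With an array or a replicate number left out, 0 to 3 of the 22 and 0 to 1439 of all were called at 24 h, 0 of the 22 and 0 to 38 of all at 6 h, and 0 to 4 and 0 to 1498 for 24 h against 6 h. The cause of these differences was not tested. Quantile normalization gave 4 of the 22 and median centring 3 at 24 h, and over all probe sets the split of higher and lower was 746 and 576 under quantile normalization, against 809 and 420. Of 1446 alternative values of the 22 probe sets 84 lost a call and 23 gained 1, and no called value changed sign. Most of the 1446 belong to values that were not called and could not lose a call. At 24 h against the control *Vegfc* 1419417_at stayed called in 8 of 21 alternatives and 1440739_at in 6 of 21. *Fgf7* 1422243_at stayed called in 10 of 23 and 1438405_at in 6 of 23. Against 6 h *Vegfc* 1419417_at stayed called in 11 of 21 and *Fgf7* 1422243_at in 7 of 23. A signal near the floor of the array limits *Fgf2* and the dim *Vegfc*, *Hif1a* and *Angpt1* probe sets.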
